A study of Mus musculus with 156 samples.

Results

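The 37 genes described here are the enzymes of glycolysis and genes known to respond to low oxygen, taken by gene name from the deposited table of 40914 gene identifiers. They matched 38 identifiers, because Aldoa had a second one beside the first on the same strand. That second identifier averaged 2.36 TPM over all libraries and the first 1171 TPM, and how reads were split between them is uncertain. By role, 17 names were glycolytic enzymes (Hk1, Hk2, Gpi1, Pfkl, Pfkm, Pfkp, Aldoa, Aldoc, Tpi1, Gapdh, Pgk1, Pgam1, Eno1, Eno2, Pkm, Ldha and Ldhb), 3 were glucose and lactate transporters (Slc2a1, Slc2a3 and Slc16a3) and 3 were regulators of flux (Pdk1, Pfkfb3 and Pfkfb4). A further 13 were other hypoxia targets (Bnip3, Bnip3l, Egln1, Egln3, Adm, Ankrd37, P4ha1, P4ha2, Ndrg1, Mif, Hilpda, Kdm3a and Higd1a), and the last was Gpd1, the cytosolic glycerol-3-phosphate dehydrogenase.

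RNA abundance was measured by poly(A) RNA-seq in mouse embryonic stem cells of 4 lines, in a study of the long noncoding RNA Firre. The KO transgene line was a Firre knockout with a doxycycline-inducible Firre transgene, and the KO control line was a Firre knockout labelled as control. The WT transgene line carried an inducible Firre transgene in wild-type cells, and the WT control line was wild type and labelled as control. All 4 lines, the controls included, grew on gelatin in serum medium with LIF and the kinase inhibitors PD0325901 (MEK) and CHIR99021 (GSK3), and all received doxycycline on the day after seeding, 1 h after a change of medium. A long course sampled 0, 720, 1440, 2880 and 5760 min with 3 libraries per line and time (60 libraries), and a short course sampled 12 times from 0 to 330 min with 2 libraries per line and time (96 libraries). In the control lines, doxycycline exposure, medium age and time since seeding moved together and cannot be told apart. Each genotype and transgene was represented by 1 line, and whether the replicates were separate cultures is not given, so the tests measure the spread between these libraries, which may be technical.

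Glycolysis splits glucose into pyruvate, which is either reduced to lactate and exported or passed to mitochondria. When oxygen is scarce, the prolyl hydroxylases that mark hypoxia-inducible factor (HIF) for destruction lose activity, and HIF binds a short core motif near genes for glucose uptake, glycolysis, lactate export and the diversion of pyruvate from mitochondria. Mouse embryonic stem cells are known for high glycolytic flux even in room air.

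The core of the HIF-binding element, ACGTG, was searched on both strands (CACGT on the other) in the 250 bases before each transcription start of RefSeq (GRCm38.p6). It was found in 51.5% of the 33 members with a window (17 genes), against 18.5% of 27025 genes with a window. By role, 7 of 17 enzymes, 2 of 2 transporters, 1 of 3 regulators of flux and 7 of 11 other hypoxia targets held it, and Slc2a3, Bnip3l, Ndrg1 and Gpd1 had no window. The upstream windows of 4 genes that hold the motif and had large changes over the long course are printed here with matches in capitals, beside that of the enzyme gene Gpi1, which had no match. They lie at chr11:120948817-120949066 on the plus strand (Slc16a3, the lactate exporter), chr7:138909507-138909756 on the minus strand (Bnip3, a mitophagy receptor), chr8:45999851-46000100 on the minus strand (Ankrd37, an ankyrin-repeat protein), chr12:54203875-54204124 on the minus strand (Egln3, a HIF prolyl hydroxylase) and chr7:34230337-34230586 on the minus strand (Gpi1, glucose-6-phosphate isomerase), each printed 5′ to 3′ in the direction of its gene.
Slc16a3: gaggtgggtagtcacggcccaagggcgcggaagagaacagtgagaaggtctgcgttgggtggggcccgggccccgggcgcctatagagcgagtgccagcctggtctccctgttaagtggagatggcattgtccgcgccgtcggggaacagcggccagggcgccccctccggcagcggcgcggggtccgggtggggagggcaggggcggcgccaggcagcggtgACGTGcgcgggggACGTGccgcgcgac
Bnip3: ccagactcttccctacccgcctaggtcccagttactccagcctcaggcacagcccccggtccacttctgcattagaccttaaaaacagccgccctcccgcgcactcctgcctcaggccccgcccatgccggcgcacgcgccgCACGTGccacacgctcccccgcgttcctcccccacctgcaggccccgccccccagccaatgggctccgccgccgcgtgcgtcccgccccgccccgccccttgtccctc
Ankrd37: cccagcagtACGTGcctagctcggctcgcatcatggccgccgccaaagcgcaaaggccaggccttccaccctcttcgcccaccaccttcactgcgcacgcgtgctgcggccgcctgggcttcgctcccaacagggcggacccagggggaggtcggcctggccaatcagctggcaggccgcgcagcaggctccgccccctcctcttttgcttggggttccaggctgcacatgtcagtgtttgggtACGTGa
Egln3: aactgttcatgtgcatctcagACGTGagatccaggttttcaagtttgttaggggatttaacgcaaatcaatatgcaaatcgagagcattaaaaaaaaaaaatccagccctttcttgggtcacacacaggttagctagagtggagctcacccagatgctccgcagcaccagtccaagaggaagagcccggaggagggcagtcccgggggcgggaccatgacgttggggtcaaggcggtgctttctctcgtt
Gpi1: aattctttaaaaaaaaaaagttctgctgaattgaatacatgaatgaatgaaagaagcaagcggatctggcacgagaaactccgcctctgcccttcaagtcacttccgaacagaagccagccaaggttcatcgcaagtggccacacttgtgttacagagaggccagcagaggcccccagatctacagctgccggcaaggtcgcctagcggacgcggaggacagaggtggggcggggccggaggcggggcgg
On mm10 the genes span chr11:120948480-120960868 (Slc16a3), chr7:138890836-138909519 (Bnip3), chr8:45996902-46005707 (Ankrd37), chr12:54178981-54203860 (Egln3) and chr7:34201330-34230336 (Gpi1) in GENCODE M21. The windows were placed by RefSeq starts, which differ from GENCODE here: those of Slc16a3 and Ankrd37 lie inside the GENCODE spans, and that of Bnip3 overlaps its edge. The 2 matches of Slc16a3 started at -27 and -14 bases from the RefSeq start site, those of Ankrd37 at -241 and -6, and that of Egln3 at -229. In Bnip3 the motif and its complement overlap in one palindrome. The windows printed were chosen with both the matches and the changes known, and a match did not go with the size of change in every member. Pdk1 and Aldoc had none, although their largest changes over the long course in the KO control were -1.15 and -1.13 on the log2 scale. Pkm, Pgam1, Egln1 and Hilpda held one, with changes of -0.13, -0.11, -0.27 and -0.11 there. A match is a run of letters and not a measured binding site.

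Library sums of the deposited expected counts were 18961799 to 47948630 in the long course and 19013652 to 37195019 in the short course. Firre followed the labels in the long course: after 0 min it stood at 24.8 to 50.8 TPM with the transgene in KO cells, against 0.391 to 1.07 TPM in the KO control, and at 62.8 to 121 TPM with the transgene in WT cells, against 21.3 to 31.3 TPM in the WT control. After 0 min of the short course it was higher in both transgene lines. It stood at 130 to 471 TPM in KO cells, against 0.279 to 2.02 TPM in the KO control. In WT cells it stood at 283 to 1240 TPM, against 19.2 to 32.0 TPM in the WT control. Embryonic stem cell markers (6 genes) summed to 1951 to 2711 TPM per library, fibroblast or feeder markers to 0.987 to 4.98 TPM with 5 of 6 never at 1 TPM, and primitive endoderm markers (6 genes) to 254 to 405 TPM. Trophoblast markers (6 genes, 1 never at 1 TPM) summed in the long course to 28.9 to 78.2 TPM in the KO transgene line, 28.7 to 44.1 TPM in the KO control, 26.1 to 41.6 TPM in the WT transgene line and 28.4 to 39.3 TPM in the WT control, and in the short course to between 21.0 and 30.7 TPM. The part of such cells in the results was not tested. In bulk RNA, fewer cells of a type and less RNA per cell cannot be told apart. The ratio of count to TPM, which reflects the transcript length assigned to a gene, was not constant: relative to its mean, the log2 ratio of Gapdh stood at 0.12, -0.07, -0.05, -0.11 and 0.12 at 0, 720, 1440, 2880 and 5760 min, and that of Bnip3 at -0.10, 0.07, 0.04, 0.09 and -0.10 (means of 12 libraries). Fold changes are therefore given from the counts and, where the difference matters, also with length offsets, an alternative added after the data were seen that divides the ratio out.

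The 38 identifiers took 1.09 to 1.49% of the TPM of a library in the long course and 1.25 to 1.5% in the short course. As means over all 156 libraries, Gapdh (glyceraldehyde-3-phosphate dehydrogenase) stood highest at 3827 TPM, followed by Pkm (pyruvate kinase) at 1738 TPM, Eno1 (enolase) at 1466 TPM and Aldoa (aldolase) at 1171 TPM. Of the enzymes of a single step, Ldha exceeded Ldhb (623 and 98 TPM), Hk2 exceeded Hk1 (68.5 and 15.5 TPM), and Pfkp exceeded Pfkl and Pfkm (103, 35.2 and 25.9 TPM). The glucose transporter Slc2a3 averaged 369 TPM and Slc2a1 82.6 TPM. Among the hypoxia targets Mif, a cytokine, averaged 971 TPM, the histone demethylase gene Kdm3a 157 TPM and Bnip3 35.4 TPM, while Egln3 averaged 3.14 TPM and Adm, which encodes adrenomedullin, 0.138 TPM. All 38 identifiers passed the filter on low counts in the long course, and all but Adm in the short course.

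Time in the long course was asked of each control line, as the change from 0 min over 4 later times. In the KO control 34 of 38 identifiers changed, 5 upward and 29 downward, where 59.6% of all 17565 genes changed (edgeR quasi-likelihood test, adjusted p under 0.05), 29.8% upward and 29.8% downward. In the WT control 33 changed, 2 upward and 31 downward, where 54.8% of all genes changed, 28.7% upward and 26.1% downward. The medians of the largest change per gene were -0.36 in the KO control and -0.32 in the WT control on the log2 scale, against -0.06 and -0.07 over all genes. With length offsets 31 identifiers changed in each control, where 56.1% of all genes changed in the KO control and 48.8% in the WT control. The median of the 18 enzyme identifiers was then -0.10 in the KO control and -0.16 in the WT control, while that of the 13 hypoxia targets was -0.50 and -0.34.

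**Figure D1:**
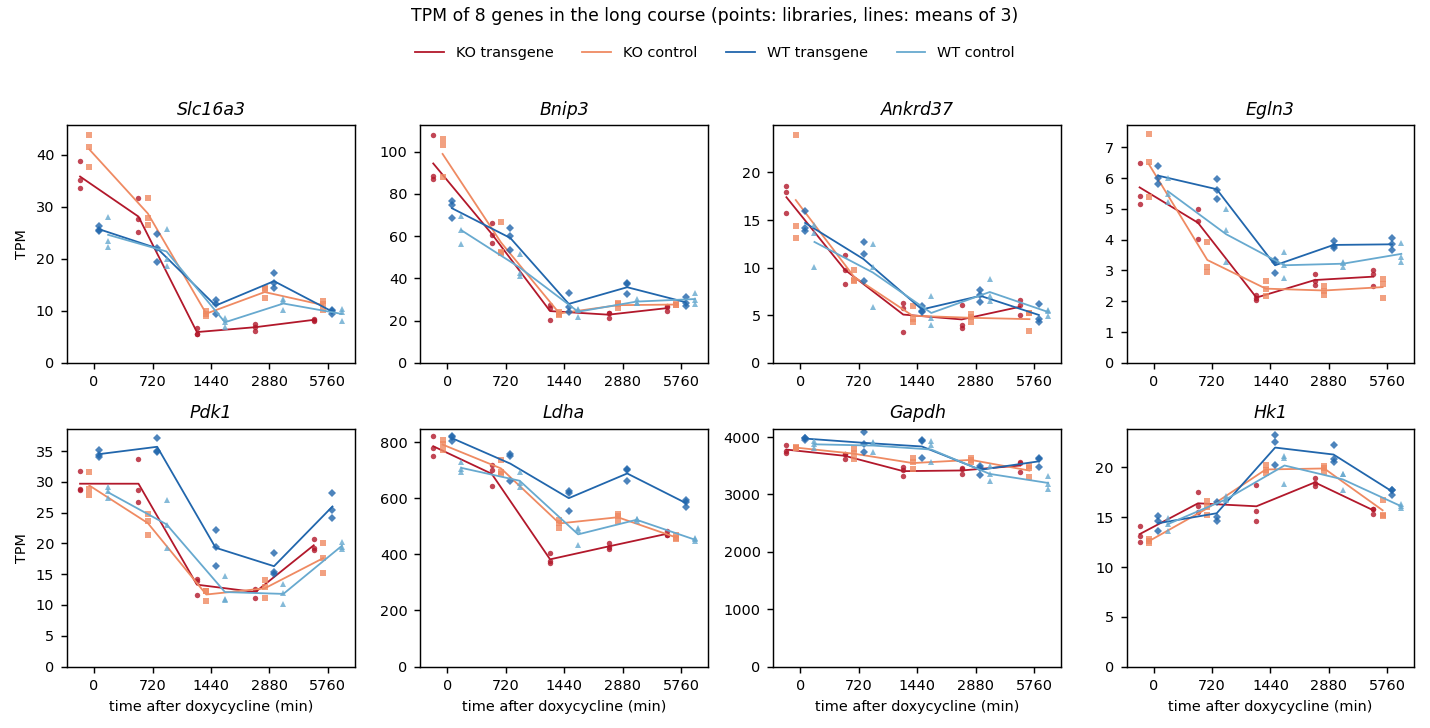
TPM of 8 genes in each library of the long course (vertical axis) by time after doxycycline (horizontal axis, times evenly spaced), with points for libraries, lines through the means of 3 libraries and colours for the 4 lines. Slc16a3, Bnip3, Ankrd37, Egln3 and Pdk1 stood lower at 1440 min than at 0 min in every line, Gapdh stayed between 3102 and 4088 TPM, and Hk1 stood higher.

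Among the transporters, Slc16a3, the proton-coupled exporter of lactate, fell the most. In the KO control it read 43.7, 37.7 and 41.5 TPM at 0 min, 27.8, 26.5 and 31.7 TPM at 720 min and 9.09, 9.89 and 9.38 TPM at 1440 min. In the WT control it read 23.4, 22.3 and 28.0 TPM, 19.9, 18.6 and 25.7 TPM, and 7.90, 8.54 and 6.94 TPM at the same times. Every 1440 min library thus lay below every 0 min library of its line, and log2 fold changes at 1440 min were -2.18 ± 0.07 in the KO control and -1.60 ± 0.08 in the WT control (± standard error, edgeR adjusted p = 3.95e-35 and 3.99e-25). Slc2a1, the basal glucose transporter, fell by 0.48 ± 0.04 at 1440 min in the KO control and by 0.43 ± 0.04 at 5760 min in the WT control. Slc2a3, the high-affinity glucose transporter, was higher at 2880 min in the KO control (0.29 ± 0.03) and lower at 5760 min in the WT control (-0.20 ± 0.03), each at the time of its largest change.

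Of the hypoxia targets, Bnip3 read 23.2, 24.1 and 22.7 TPM at 1440 min in the KO control against 103, 88.0 and 106 TPM at 0 min. In the WT control it read 21.7, 25.2 and 25.7 TPM at 1440 min against 62.8, 56.2 and 69.5 TPM at 0 min. The lines were apart at 0 min and overlapped at 1440 min, with log2 fold changes at 1440 min of -1.79 ± 0.10 in the KO control and -1.19 ± 0.11 in the WT control (edgeR adjusted p = 2.71e-21 and 1.64e-12). Ankrd37 fell by 1.83 ± 0.17 in the KO control at 5760 min and by 1.10 ± 0.18 in the WT control at 1440 min. Egln3, a HIF target that itself inactivates HIF, fell by 1.39 ± 0.11 and 0.75 ± 0.11 at 1440 min in the KO and WT controls. P4ha1, a collagen prolyl hydroxylase, fell by 0.77 ± 0.06 and 0.57 ± 0.06, and Ndrg1, a gene induced by hypoxia and stress, by 1.11 ± 0.09 and 0.54 ± 0.10. Not all hypoxia targets moved this way. Egln1, the main HIF prolyl hydroxylase of normal oxygen, fell by 0.27 ± 0.06 at 5760 min in the KO control and rose by 0.15 ± 0.06 at 2880 min in the WT control. These are different times, and the difference in change between the controls was not called for Egln1. Hilpda, a lipid droplet protein gene, did not pass in the KO control (-0.11 ± 0.09 at 5760 min, edgeR adjusted p = 0.782) and fell in the WT control (-0.33 ± 0.10 at 1440 min), and the difference between the controls was not called either (edgeR adjusted p = 0.176).

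Among the regulators of flux, Pdk1, the kinase that shuts pyruvate dehydrogenase, fell and then came back. It read 12.3, 10.6 and 12.3 TPM at 1440 min in the KO control against 28.9, 27.9 and 31.6 TPM at 0 min, and 10.8, 14.7 and 10.9 TPM in the WT control against 27.4, 29.1 and 28.5 TPM. At 5760 min it read 15.2, 20.0 and 17.6 TPM in the KO control and 20.3, 19.5 and 19.1 TPM in the WT control, between the levels of those times. The step from 2880 to 5760 min was upward in all 4 lines, by 0.51 ± 0.07 in the KO transgene line, 0.35 ± 0.06 in the KO control, 0.27 ± 0.06 in the WT transgene line and 0.42 ± 0.06 in the WT control (edgeR adjusted p = 5.96e-09, 2.02e-05, 1.93e-04 and 7.00e-07). Pfkfb3, which makes the activator of phosphofructokinase, fell by 1.17 ± 0.08 at 1440 min in the KO control and by 0.57 ± 0.08 at 2880 min in the WT control. Pfkfb4, a related enzyme at 1.60 TPM, did not pass in either control from the counts (edgeR adjusted p = 0.416 in the KO control and 0.219 in the WT control). With length offsets it passed in both, with a largest change of 0.68 at 720 min in the KO control and -0.47 at 2880 min in the WT control. The times differ, and the difference in change between the controls was not called for Pfkfb4 under either setting.

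The enzymes split by size of change. Aldoc, the minor aldolase, fell by 1.13 ± 0.08 in the KO control and 0.86 ± 0.09 in the WT control at 1440 min, and Ldha, which makes lactate, by 0.71 ± 0.03 in the KO control at 5760 min and 0.57 ± 0.03 in the WT control at 1440 min. Pfkp and Pfkl, phosphofructokinase isoforms, fell by 0.66 ± 0.03 and 0.60 ± 0.04 at 1440 min in the KO control. Pgk1, the first ATP-yielding step, fell by 0.52 ± 0.05 in the KO control at 5760 min and by 0.29 ± 0.05 in the WT control at 1440 min. The most abundant enzymes moved little: at 720 min Gapdh gave -0.34 ± 0.07 in the KO control and -0.27 ± 0.07 in the WT control from the counts, but -0.09 and -0.02 with length offsets. Gpi1 turned its sign: at 720 min it gave -0.10 in the KO control and -0.13 in the WT control from the counts and 0.10 in each with length offsets. Pkm also did in the KO control, at -0.13 from the counts and 0.06 with length offsets at 1440 min. The minor hexokinase Hk1 stood apart: it read 20.1, 19.5 and 19.9 TPM at 2880 min in the KO control against 12.8, 12.6 and 12.4 TPM at 0 min, and 19.3, 19.3 and 17.7 TPM in the WT control against 13.6, 14.9 and 14.3 TPM. It rose by 0.63 ± 0.04 in the KO control and 0.46 ± 0.04 in the WT control (edgeR adjusted p = 4.71e-26 and 3.26e-18), with no overlap between those times in either line. Pfkm, the third phosphofructokinase isoform, rose by 0.12 ± 0.04 at 5760 min in the KO control, a call lost without replicate 3 (edgeR adjusted p = 0.0785). Hk2, the major hexokinase, rose by 0.08 ± 0.03 at 5760 min in the KO control, a call lost without filtering on low counts, without any 1 replicate number and with length offsets (edgeR adjusted p = 0.125 to 0.748).

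**Figure D2:**
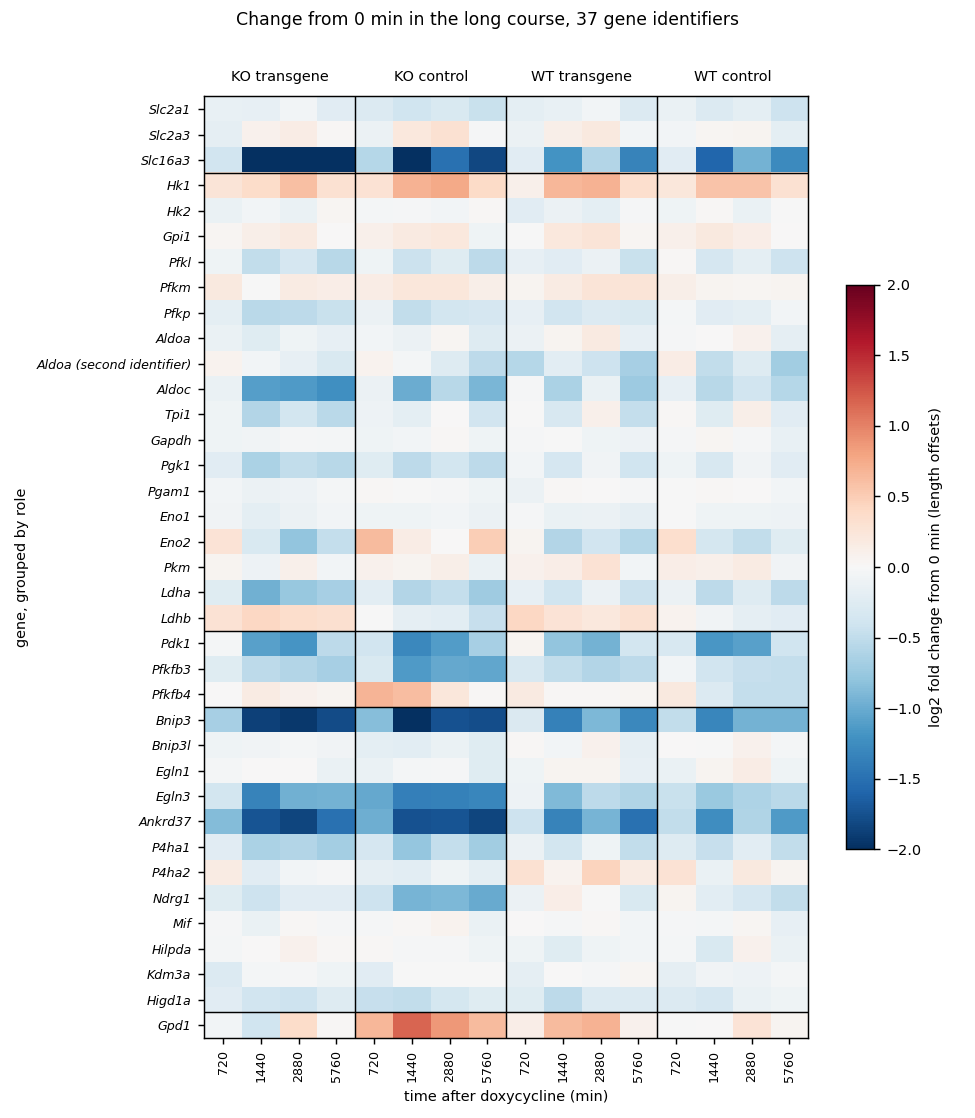
Log2 fold change from 0 min, with length offsets, for 37 identifiers (rows, grouped by role; Adm at 0.138 TPM is left out) at 4 times in 4 lines (columns) of the long course, with colours that end at -2 and 2. Slc16a3, Bnip3, Ankrd37, Egln3 and Pdk1 are blue in every line from 1440 min, Hk1 is red in every line, and at 5760 min Ldhb is red in both transgene lines and blue in both controls.

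The timing of the fall was followed step by step. From 0 to 720 min 23 identifiers changed in the KO transgene line, 28 in the KO control, 14 in the WT transgene line and 13 in the WT control, where 11.5%, 8.84%, 9.22% and 4.83% of all genes changed. With length offsets the first step gave 15, 18, 9 and 6 identifiers in these lines. The share over all genes was not counted for that setting, so whether the drop concerns the members or all genes is not known. From 720 to 1440 min 25, 19, 28 and 21 changed in these lines, against 39.4%, 38.5%, 41.8% and 30.5% of all genes. Both steps of a line share its 720 min libraries.

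Next came the KO control against the WT control. At 0 min 19 of 38 identifiers differed, 12 higher and 7 lower in the KO control, where 35.1% of all genes differed, 16.5% higher and 18.6% lower (edgeR, adjusted p under 0.05), and the median was 0.00 against -0.01 over all genes. Of the hypoxia targets 6 of 13 were higher and 1 was lower. Slc16a3 was higher by 0.72 ± 0.06 and Bnip3 by 0.63 ± 0.09 (edgeR adjusted p = 2.37e-14 and 2.59e-07), with the 0 min values given above and no overlap between the lines. Aldoc read 14.3, 13.5 and 14.1 TPM in the KO control against 8.81, 8.14 and 9.82 TPM in the WT control, a difference of 0.61 ± 0.07. Pfkfb3 read 5.20, 4.39 and 5.58 TPM against 3.43, 3.32 and 3.64 TPM in the WT control (0.51 ± 0.07). Both genes were higher in every KO library. Ndrg1 was higher by 0.46 ± 0.09, Ldha by 0.18 ± 0.03 and P4ha1 by 0.18 ± 0.05. Lower in the KO control were Gpd1 (-0.79 ± 0.18), Hk1 (-0.19 ± 0.04), Slc2a3 (-0.19 ± 0.02), Kdm3a (-0.13 ± 0.03) and Eno1 (-0.12 ± 0.03). Pfkfb4 was lower by 0.34 ± 0.14 (edgeR adjusted p = 0.0466), a call lost under 8 alternatives (adjusted p = 0.0512 to 0.435, edgeR or DESeq2). Kdm3a was not called without replicate 1 (edgeR adjusted p = 0.0905) and Eno1 not without replicate 2 (edgeR adjusted p = 0.067). Adm was higher by 1.98 ± 0.53, at no more than 0.733 TPM in any of these libraries.

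Over 1440 to 5760 min the direction changed. Again 19 identifiers differed, now 3 higher and 16 lower in the KO control, where 37.3% of all genes differed, 17.6% higher and 19.7% lower. Aldoc (0.40 ± 0.05), Pfkm (0.22 ± 0.02) and Slc16a3 (0.14 ± 0.05) were the higher ones, the last not without replicate 1 (edgeR adjusted p = 0.259). Egln3 was lower by 0.50 ± 0.07: at 2880 min it read 2.51, 2.20 and 2.33 TPM in the KO control against 3.25, 3.12 and 3.29 TPM in the WT control, without overlap. Ldhb, the lactate dehydrogenase subunit that favours pyruvate, was lower by 0.25 ± 0.02, Higd1a, a mitochondrial hypoxia-induced gene, by 0.22 ± 0.03 and Pgk1 by 0.17 ± 0.03. Ankrd37 was lower by 0.46 ± 0.12 from the counts, a call lost with length offsets (-0.36, edgeR adjusted p = 0.0629).

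**Figure D3:**
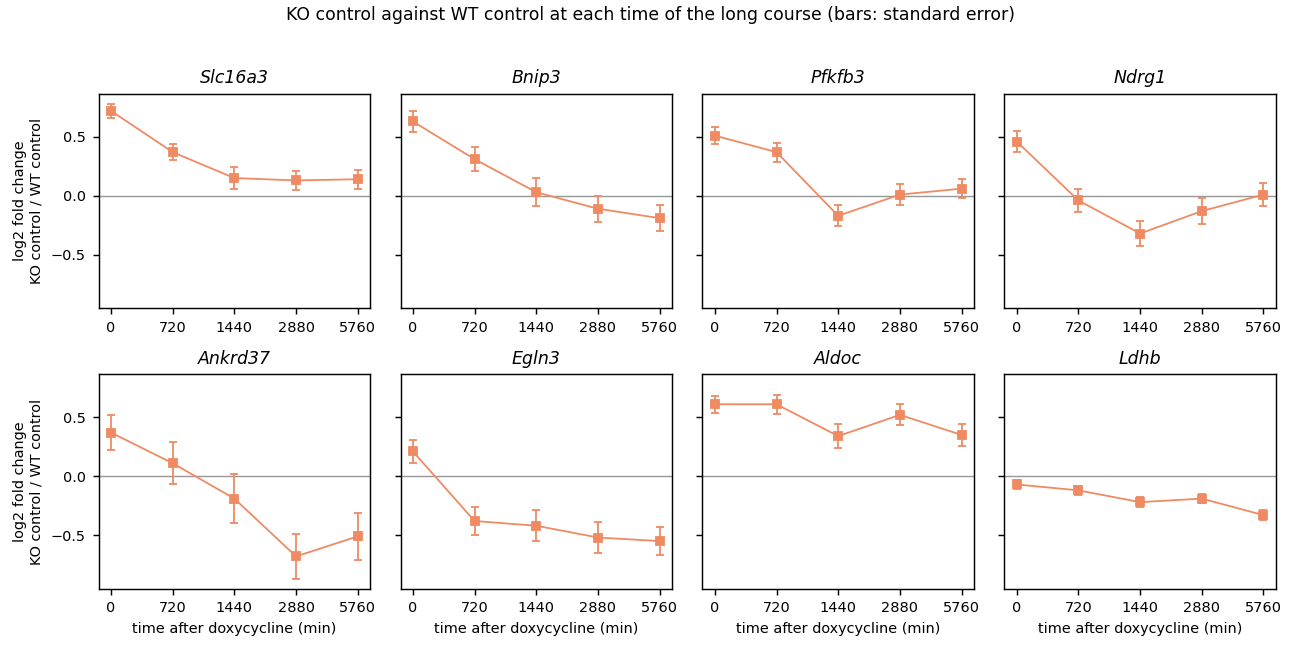
Log2 fold change of the KO control over the WT control (vertical axis, bars are standard errors of the edgeR fit, 3 libraries each) at 5 times (horizontal axis) for 8 genes. Slc16a3 and Bnip3 start at 0.72 and 0.63 and lie within 0.19 of 0 from 1440 min, Egln3 and Ldhb are below 0 from 720 min, and Aldoc stays above 0.

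The change over time itself differed between the KO and WT controls for 16 identifiers, 3 with a higher and 13 with a lower change in the KO control, where 18.8% of all genes differed, 9.92% upward and 8.93% downward. These tests use the same control libraries as the comparisons above. Ankrd37 differed by -1.04 ± 0.25 at 2880 min, Bnip3 by -0.83 ± 0.15 and Egln3 by -0.76 ± 0.16 at 5760 min, Ndrg1 by -0.78 ± 0.14 and Pfkfb3 by -0.69 ± 0.11 at 1440 min, and Slc16a3 by -0.59 ± 0.11 at 2880 min. The count was 10 without replicate 1 and without replicate 2, and 8 with length offsets, where 14.7%, 8.72% and 7.89% of all genes differed. Slc2a3 (0.24 ± 0.04 at 2880 min), Hk1 (0.18 ± 0.06 at 2880 min) and Eno2, the neuronal enolase (0.48 ± 0.24 at 1440 min), had the higher changes. Those of Hk1 and Eno2 were lost under several alternatives, among them length offsets (edgeR adjusted p = 0.394 and 0.611). The call of Ankrd37 was lost without replicate 1 and with length offsets (edgeR adjusted p = 0.12 and 0.162), and that of Ndrg1 with length offsets (-0.72, edgeR adjusted p = 0.166).

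Before doxycycline the transgene lines were set against their controls. Firre itself already stood higher in the transgene lines at 0 min, at 0.588 to 1.07 TPM in the KO transgene line against 0.235 to 0.515 TPM in the KO control, and at 45.8 to 46.8 TPM in the WT transgene line against 23.6 to 24.7 TPM in the WT control (lowest to highest of 3 libraries each). The values in KO cells are low, and the KO control itself read 0.391 to 1.07 TPM after 0 min. At 0 min of the short course the KO lines overlapped, at 1.38 to 1.94 TPM with the transgene and 1.09 to 1.62 TPM in the control. In the KO background 5 identifiers differed, where 3.54% of all genes did (1.83% higher, 1.71% lower): Aldoc (-0.24 ± 0.07), Pfkfb3 (-0.23 ± 0.07), Ldhb (-0.18 ± 0.04) and Pfkp (-0.13 ± 0.03) were lower in the transgene line and Gpd1 was higher (0.62 ± 0.19). The count was 2 with DESeq2, 1 to 2 with 1 replicate number left out and 1 with length offsets. Over all genes 3.48%, 1.41 to 1.82% and 1.3% differed under these settings. In the WT background 9 differed, where 13.2% of all genes did (7.22% higher, 5.94% lower). Tpi1, triosephosphate isomerase, read 341, 333 and 336 TPM in the WT transgene line against 273, 269 and 288 TPM in the WT control, a difference of 0.27 ± 0.04 (edgeR adjusted p = 1.99e-06) with no overlap. Pgk1 (0.22 ± 0.05), Ldha (0.21 ± 0.03), Eno1 (0.15 ± 0.03) and Pdk1 (0.25 ± 0.05) were also higher in the WT transgene line. P4ha2 (-0.40 ± 0.10), Kdm3a (-0.30 ± 0.03), Ldhb (-0.23 ± 0.04) and Pfkm (-0.19 ± 0.04) were lower. The call of Pgk1 was lost without replicate 1 or 2 (edgeR adjusted p = 0.132 and 0.0791), those of Pdk1 and P4ha2 without replicate 2 (edgeR adjusted p = 0.108 and 0.133) and with length offsets (edgeR adjusted p = 0.114 and 0.14), and that of Ldhb with length offsets (edgeR adjusted p = 0.074). These differences stand before doxycycline and are part of each line's 0 min level below.

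The response to the transgene was each transgene line's change since 0 min less the change of its control. Among KO cells (rescue) 15 of 38 identifiers responded, 7 upward and 8 downward, where 11.5% of all genes responded (5.56% upward, 5.97% downward), with a median of -0.01 against -0.05 over all genes. In the WT background (overexpression) 10 responded, 8 upward and 2 downward, where 9.8% of all genes responded (4.16% upward, 5.64% downward). The rescue count was 10 to 13 with 1 replicate number left out and 10 with length offsets, where 4.21 to 7.24% and 4.78% of all genes responded. The overexpression count moved more, to 1 without replicate 2, 3 without replicate 3 and 3 with length offsets. The share of all genes fell as well, to 1.68%, 3.63% and 3.75% under these settings.

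Ldhb rose in both backgrounds. At 5760 min it read 121, 127 and 124 TPM in the KO transgene line against 79.6, 80.0 and 77.6 TPM in the KO control, and 119, 130 and 136 TPM in the WT transgene line against 94.2, 96.4 and 99.1 TPM in the WT control. Every transgene library lay above every control library at that time, although at 0 min the transgene lines were the lower ones, at 103, 107 and 104 TPM against 112, 112 and 120 TPM in the KO background and 105, 112 and 108 TPM against 119, 122 and 127 TPM in the WT background. The response was 0.79 ± 0.06 in KO cells and 0.58 ± 0.06 in WT cells (edgeR adjusted p = 4.61e-20 and 3.94e-12), and was 0.36 ± 0.06 and 0.45 ± 0.06 at 720 min.

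Slc16a3 responded in opposite directions. At 2880 min it read 7.48, 6.20 and 6.89 TPM in the KO transgene line against 14.3, 14.1 and 12.4 TPM in the KO control, with no overlap. In the WT background it read 14.3, 17.3 and 15.4 TPM in the transgene line against 11.8, 10.2 and 12.2 TPM in the control, where the transgene line was the higher one. The response was -0.84 ± 0.11 in KO cells and 0.30 ± 0.11 in WT cells (edgeR adjusted p = 2.41e-09 and 0.0426), and the call in the WT background was lost with any 1 replicate number left out, without replicate 3 of the WT control at 1440 min and with length offsets (edgeR adjusted p = 0.0598 to 0.502). The difference between the backgrounds was -1.14 ± 0.15 (edgeR adjusted p = 1.13e-07).

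The other responses of the WT background were small. Upward were, among others, Pdk1 (0.27 ± 0.09 at 1440 min), Pfkm (0.23 ± 0.05 at 5760 min) and Slc2a1 (0.17 ± 0.05 at 1440 min), and each was lost without replicate 2 and without replicate 3 (edgeR adjusted p = 0.098 to 0.573). Downward were Tpi1 (-0.21 ± 0.06) and Pfkp (-0.20 ± 0.04) at 5760 min, Tpi1 lost without replicate 1 or 2 (edgeR adjusted p = 0.528 and 0.144) and Pfkp without replicate 2 or 3 (edgeR adjusted p = 0.353 and 0.15). With length offsets Pfkp kept its call (edgeR adjusted p = 0.0126) and the other 4 lost theirs (edgeR adjusted p = 0.0651 to 0.325).

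The responses of Ldha, Tpi1, Aldoc and Hk1 were downward in the KO background. Upward and downward here are relative to the change of the KO control. Hk1 stood higher at 1440 min than at 0 min in every line, so its response was a smaller rise. In the KO transgene line it read 12.5 to 14.1 TPM at 0 min, with a median of 15.8 TPM over the long course. Pfkfb3, with an upward response, read lower at 1440 min than at 0 min in both KO lines. Ldha read 404, 368 and 375 TPM at 1440 min in the KO transgene line against 493, 513 and 522 TPM in the KO control, without overlap, a response of -0.33 ± 0.05 (edgeR adjusted p = 1.55e-11). Tpi1 read 204, 198 and 194 TPM at 2880 min against 252, 266 and 261 TPM in the KO control, again without overlap (-0.34 ± 0.06, edgeR adjusted p = 3.49e-07). Aldoc gave -0.48 ± 0.12 at 2880 min, a call lost without replicate 2 (edgeR adjusted p = 0.141), and Hk1 gave -0.27 ± 0.06 at 1440 min. Gpd1, at 0.460 to 0.495 TPM in the KO transgene line at 1440 min against 0.657 to 1.24 TPM in the KO control, gave -1.27 ± 0.27. Upward in the KO background were Ndrg1 (0.69 ± 0.14 at 2880 min), Egln3 (0.66 ± 0.15 at 720 min), Pfkfb3 (0.56 ± 0.11 at 1440 min), Pdk1 (0.35 ± 0.08 at 720 min) and Slc2a1 (0.25 ± 0.05 at 1440 min). With length offsets Pfkfb3 kept its call, and Ndrg1, Egln3, Pdk1 and Slc2a1 missed it (0.67, 0.65, 0.34 and 0.23, edgeR adjusted p = 0.0623, 0.0522, 0.446 and 0.0833). The call of Ndrg1 was also lost without replicate 1 (edgeR adjusted p = 0.0534), that of Egln3 without replicate 1 or 2 (edgeR adjusted p = 0.276 and 0.144) and that of Pdk1 without replicate 2 (edgeR adjusted p = 0.202). The KO transgene line was also the one whose trophoblast marker sum reached 78.2 TPM, against at most 44.1 TPM in the KO control, and the part of this in the responses was not tested. Pfkfb3 read 2.90, 2.61 and 2.74 TPM at 1440 min in the KO transgene line against 2.17, 2.15 and 2.35 TPM in the KO control, so the higher line at 1440 min had been the lower one at 0 min, at 4.03, 3.99 and 4.51 TPM against 5.20, 4.39 and 5.58 TPM.

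**Figure D4:**
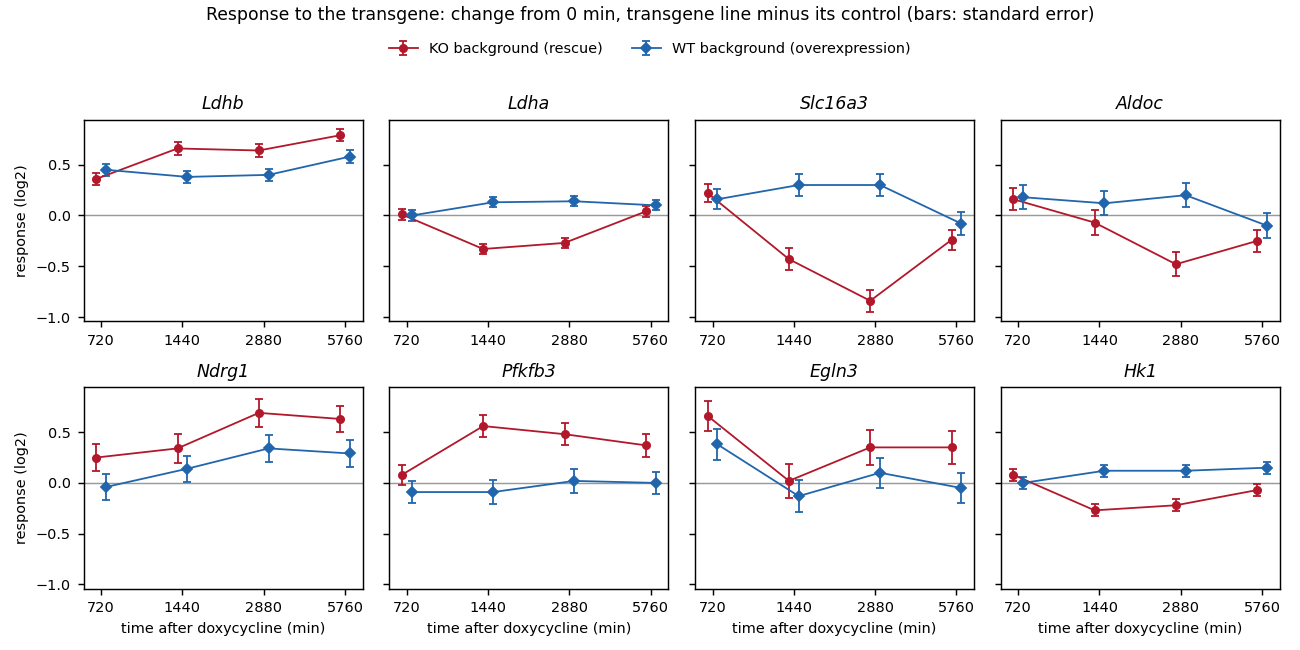
Response to the transgene in log2 units (vertical axis, bars are standard errors of the edgeR fit) at 4 times after doxycycline (horizontal axis) for 8 genes, in the KO background (rescue) and the WT background (overexpression). Ldhb lies above 0 at every time in both, Slc16a3 reaches -0.84 in the KO background at 2880 min and 0.30 in the WT background, and Ldha and Hk1 fall below 0 in the KO background at 1440 min.

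The response differed between backgrounds for 11 identifiers, 2 higher and 9 lower in the KO background, where 5.32% of all genes differed (2.68% higher, 2.64% lower). The controls of each background serve in these tests too. Beside Slc16a3 and Gpd1 (-1.78 ± 0.37), Ldha (-0.46 ± 0.07 at 1440 min), Hk1 (-0.39 ± 0.08 at 1440 min) and Slc2a3 (-0.25 ± 0.05 at 2880 min) were lower in the KO background. Aldoc (-0.68 ± 0.17) and Tpi1 (-0.30 ± 0.08) were lower as well, but neither was called without replicate 1 (edgeR adjusted p = 0.126 and 0.217) or without replicate 2 (edgeR adjusted p = 0.218 and 0.0994), nor was Aldoc without replicate 3 (edgeR adjusted p = 0.194). Pfkfb3 was higher (0.65 ± 0.16 at 1440 min), a call lost without replicate 1 and without replicate 2 (edgeR adjusted p = 0.355 and 0.398), and Ldhb was higher by 0.29 ± 0.08, a call lost without replicate 2 (edgeR adjusted p = 0.0963). The count was 3 to 7 with 1 replicate number left out, where 1.32 to 5.01% of all genes differed. Of the 13 other hypoxia targets 0 were called by edgeR and 0 by DESeq2, and 2 had an unadjusted p under 0.05.

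In the short course the genes of largest change in the long course began at lower levels. At 0 min Bnip3 read 36.9 and 35.6 TPM in the KO control and 24.5 and 25.9 TPM in the WT control, and Slc16a3 11.4 and 10.4 TPM in the KO control and 8.74 and 6.60 TPM in the WT control. Those levels are nearer to the 1440 min than to the 0 min libraries of the long course, and whether cultures differed in age or density between the courses is not given. Over the 12 times 28 of 37 identifiers differed between the KO and WT controls, 22 higher and 6 lower in the KO control, where 46.6% of all 18009 genes differed, 24.2% higher and 22.4% lower (edgeR). Aldoc was higher by 0.59 ± 0.03, Slc16a3 by 0.54 ± 0.08, Bnip3 by 0.40 ± 0.05, Pfkp by 0.31 ± 0.02, Pfkl by 0.26 ± 0.02 and Pdk1 by 0.24 ± 0.04. Ankrd37 was higher by 0.37 ± 0.07, a call that was lost without replicate 2 (edgeR adjusted p = 0.0525). Ldhb was lower by 0.41 ± 0.02 (edgeR adjusted p = 1.27e-34): it ranged from 73.1 TPM over a median of 78.1 TPM to 84.5 TPM in 24 KO control libraries, against 102, 109 and 119 TPM in 24 WT control libraries. The ranges of Ldhb did not overlap, while those of Aldoc, Slc16a3 and Bnip3 did. Pfkfb3 was lower by 0.15 ± 0.03, opposite to its 0 min difference in the long course. Hk2 was lower by 0.15 ± 0.02 (edgeR adjusted p = 7.78e-12), and Eno2 was higher by 0.42 ± 0.07, a call lost with length offsets (0.24, edgeR adjusted p = 0.0763). Egln3 (-0.16 ± 0.07) and Slc2a1 (-0.08 ± 0.03) were lower, and both calls were lost without replicate 1 (edgeR adjusted p = 0.155 and 0.315) and without replicate 2 (edgeR adjusted p = 0.311 and 0.0694).

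Within the short course the whole time trend moved few members. In the KO control 4 changed (Pdk1, Egln3, P4ha1 and Pfkp), where 13.3% of all genes changed, and 0 without replicate 1, where 4.32% did. In the WT control 5 changed (Pdk1, P4ha2, Pgam1, Pfkfb4 and Pfkp), where 21.8% did, and 2 without replicate 2, where 12.5% did. The rescue moved Pfkl (-0.23 ± 0.06) and Ndrg1 (-0.23 ± 0.13), where 1.83% of all genes responded. Neither was called without replicate 1 or without replicate 2, where 0.284% and 1.8% of all genes responded. The overexpression moved 0 members, where 0.7% of all genes responded, with 4 at an unadjusted p under 0.05. With DESeq2 it moved 0 and without replicate 1 it moved 3, where 0.927% and 4.36% of all genes responded. At 0 min the KO transgene line differed from its control in 0 members, where 0.428% of all genes differed, with 3 at an unadjusted p under 0.05. With DESeq2 it also differed in 0, where 0.672% of all genes did. The WT transgene line, with Firre at 41.4 and 45.5 TPM against 22.9 and 30.2 TPM in the WT control, differed in 5, where 6.86% did and 3.65% were lower, all of them lower: Ldhb (-0.27 ± 0.06), Slc2a3 (-0.17 ± 0.04), Kdm3a (-0.18 ± 0.04), P4ha2 (-0.34 ± 0.11) and Pfkp (-0.15 ± 0.05). That count was 1 without replicate 2 and 9 without replicate 1, where 1.11% and 9.12% of all genes differed. Over all 12 times Ldhb stayed lower in the WT transgene line, at 78.0 TPM over a median of 87.7 TPM to 99.3 TPM in 24 libraries against 102, 109 and 119 TPM in the WT control, a difference of -0.30 ± 0.02 with no overlap. Slc2a3 did so too, at 296, 316 and 340 TPM against 352, 381 and 394 TPM in the WT control (-0.26 ± 0.01), again with no overlap. Other members of the WT transgene line stood apart from its control in both directions, with overlapping ranges. Bnip3 (0.20 ± 0.05), Pdk1 (0.14 ± 0.04) and Ldha (0.12 ± 0.02) were among the higher ones. P4ha2 (-0.29 ± 0.04), Kdm3a (-0.23 ± 0.02) and Hk1 (-0.17 ± 0.03) were among the lower ones. The KO transgene line over all 12 times was slightly lower than the KO control in many members, among them Ldha (-0.17 ± 0.02), Aldoc (-0.16 ± 0.03) and Pfkp (-0.11 ± 0.02). P4ha2 was higher (0.14 ± 0.04), and the ranges of these genes overlapped. Neither the members called nor a share over all genes was counted for these means, which include times after doxycycline.

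**Figure D5:**
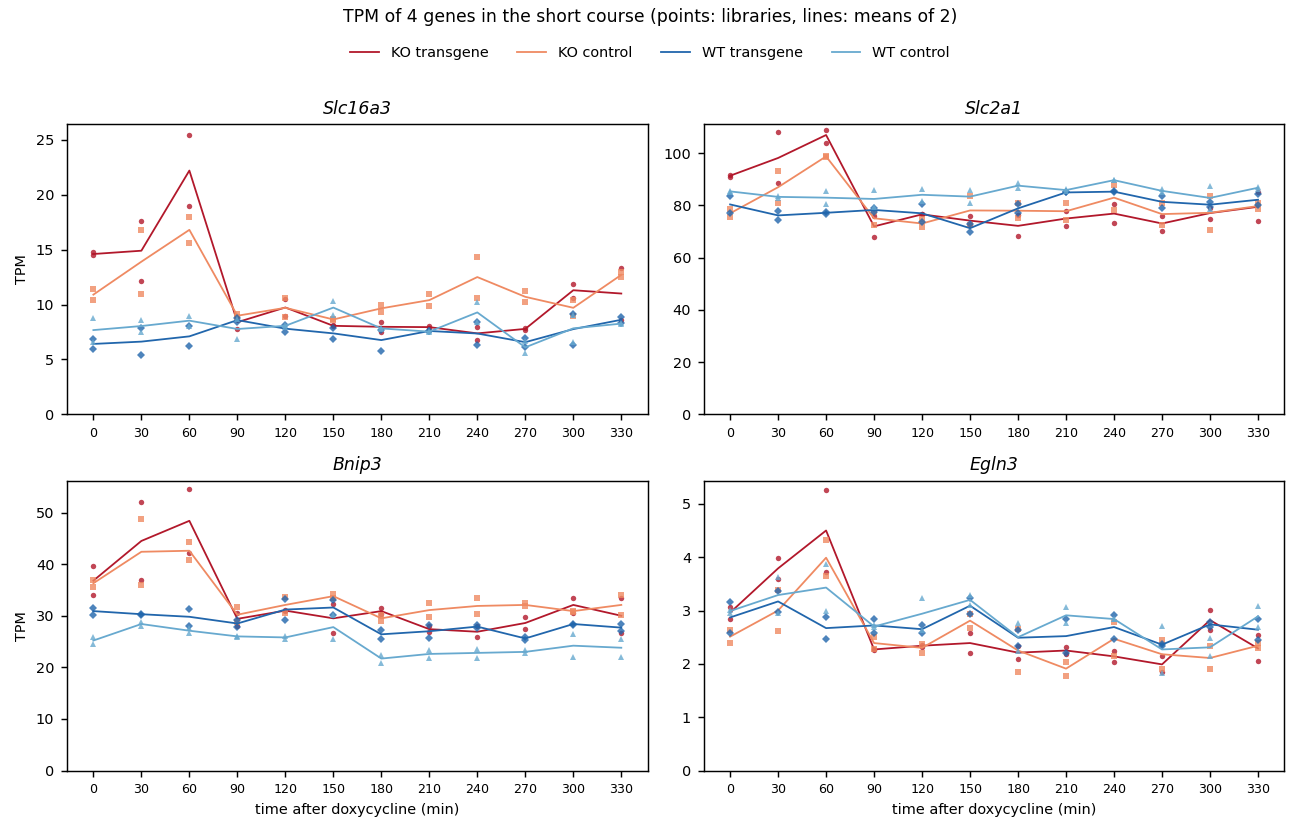
TPM of 4 genes in each library of the short course (vertical axis) by time after doxycycline (horizontal axis), with points for libraries, lines through the means of 2 libraries and colours for the 4 lines. In both KO lines Slc16a3, Slc2a1, Bnip3 and Egln3 are highest at 30 or 60 min and lower from 90 min; in neither WT line do Slc16a3 or Slc2a1 show that step.

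The KO lines showed a step between 60 and 90 min that the spline with 3 df does not follow. The times and genes of this step were picked after the values were seen, so its p-values are not those of a planned test. At 0, 60 and 90 min Slc16a3 read 14.8 and 14.5, 19.0 and 25.4, and 8.99 and 7.79 TPM in the KO transgene line, and 11.4 and 10.4, 18.0 and 15.6, and 8.87 and 9.10 TPM in the KO control. It read 5.99 and 6.84, 8.0 and 6.19, and 8.40 and 8.76 TPM in the WT transgene line, and 8.74 and 6.60, 8.98 and 8.08, and 8.67 and 6.87 TPM in the WT control. Both KO lines were thus highest at 60 min and lower at 90 min in every library, while the WT transgene line was slightly higher at 90 min and the WT control overlapped. The step from 60 to 90 min was, for KO cells with the transgene and the KO control, -1.38 ± 0.16 and -0.96 ± 0.17 for Slc16a3, -0.56 ± 0.07 and -0.38 ± 0.07 for Slc2a1, -0.76 ± 0.13 and -0.58 ± 0.13 for Bnip3, and -1.0 ± 0.15 and -0.74 ± 0.16 for Egln3 (edgeR adjusted p from 3.79e-08 to 0.0273).

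Windows of 90 to 330 min and 0 to 60 min were therefore compared, a split chosen after the values were seen. In the KO transgene line 22 of 37 identifiers differed between the windows, 1 higher (Hilpda, 0.35 ± 0.06) and 21 lower, where 16.7% of all genes did, 7.93% higher and 8.8% lower. In the KO control 8 differed, all lower, where 11.2% did and 5.24% were lower, in the WT transgene line 5, where 14.7% did, and in the WT control 2 (Pdk1 at -0.27 ± 0.04 and Egln3 at -0.26 ± 0.08), where 11.5% did. Slc16a3 ranged from 6.78 TPM over a median of 8.06 TPM to 13.3 TPM in 18 late libraries of the KO transgene line, against 12.1, 16.2 and 25.4 TPM in 6 early ones. In the KO control the late range was 8.56, 10.1 and 14.3 TPM, against 10.4, 13.5 and 18.0 TPM. The windows overlapped in both lines, and the changes were -0.96 ± 0.08 and -0.42 ± 0.08 (edgeR adjusted p = 1.01e-14 and 8.11e-05). Slc2a1 gave -0.40 ± 0.03 with the transgene in KO cells and -0.19 ± 0.03 in the KO control, and ranged from 68.1 to 85.1 TPM late against 88.7 to 109 TPM early in the KO transgene line, with no overlap. Between the end points of the spline fit, 330 against 0 min, Slc2a1 gave -0.34 ± 0.09 with the transgene in KO cells and -0.16 ± 0.09 in the KO control (edgeR adjusted p = 0.00891 and 0.338). These end-point values are smoothed over neighbouring times, unlike the windows.

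The difference between lines was tested as well, on the same libraries. The change was larger in the KO transgene line than in the KO control for 4 members, where 1.19% of all genes differed: Slc16a3 (-0.53 ± 0.11), Ndrg1 (-0.36 ± 0.08), Pfkl (-0.24 ± 0.04) and Slc2a1 (-0.21 ± 0.04). Between the KO and WT controls it differed for 2, where 3.64% did, Slc2a1 (-0.20 ± 0.04) and Hk2 (-0.14 ± 0.04). For Slc16a3 that difference was -0.34 ± 0.12 and did not pass (edgeR adjusted p = 0.0915). Between the KO and WT transgene lines it differed for 13, where 10.5% did, 2 higher and 11 lower in the KO line (4.44% and 6.04% of all genes), among them Slc16a3 (-0.97 ± 0.11), Egln3 (-0.51 ± 0.11), Ndrg1 (-0.46 ± 0.08) and Hilpda (0.41 ± 0.08).

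Genes of neighbouring pathways were followed on lists chosen by function, each change being that at its largest time. For every list the share over all genes was 29.8% upward and 29.8% downward in the KO control, and 28.7% upward and 26.1% downward in the WT control. The lists are short, and their counts were not tested against these shares. Of 9 HIF subunits and oxygen sensors, 4 rose and 3 fell over the long course in the KO control, and 7 rose and 1 fell in the WT control. Hif1a, the oxygen-regulated HIF subunit, rose by 0.25 ± 0.04 and 0.22 ± 0.04, Epas1, its paralog HIF2, by 0.31 ± 0.05 and 0.22 ± 0.05, and Cited2, an inhibitor of HIF, by 0.71 ± 0.05 and 0.31 ± 0.05 in the KO and WT controls. Of 15 further hypoxia-inducible genes, 4 rose and 8 fell in the KO control, and 2 rose and 10 fell in the WT control. Stc2, a secreted glycoprotein gene, fell by 1.70 ± 0.10 and 0.95 ± 0.11, while the adenylate kinase gene Ak4 rose by 0.41 ± 0.03 and 0.45 ± 0.03. Of 7 pentose phosphate genes, 3 rose and 3 fell in the KO control and 4 rose and 2 fell in the WT control, with Pgd at 0.35 ± 0.03 and 0.36 ± 0.03. Of 12 genes for the fates of pyruvate, glycerol and lactate, 3 rose and 6 fell in the KO control and 4 rose and 2 fell in the WT control. Slc16a1, another monocarboxylate transporter, fell by 0.42 ± 0.03 and 0.19 ± 0.03. Of 12 other isoforms of the same enzymes 7 were expressed enough to test, and 3 fell in the KO control and 2 in the WT control.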

How the data were processed

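Poly(A) RNA of 156 libraries (60 in the long course, 96 in the short course) had been sequenced, and the authors deposited expected counts and TPM for each gene. They were made with Salmon 1.5.2 on mm10, per the submitters' processing notes. The members and lists were chosen with earlier results of these data known. The deposited expected counts were rounded to whole numbers and tested with edgeR 4.0.16 (R 4.3.3; TMM scaling, filterByExpr with a minimum count of 10 and a minimum total of 15, robust quasi-likelihood fits), with Benjamini-Hochberg adjustment over all genes and a threshold of 0.05. For the long course each line at each time had its own coefficient, and a response is given at the time of its largest size. The short course had a spline with 3 df per line, and a change over time is given as the mean over the 11 later times. Time steps and windows used 1 coefficient per line and time. TPM in the text are the deposited values. Named genes were, per comparison, up to 5 called members each way with a mean of at least 1 TPM, some of them without values per library, and others by role. The scripts were tested on simulated counts. Alternatives were DESeq2 1.42.0, other scalings, no filter, other models, left-out replicates, a replicate block and length offsets. The kit does not mark strand.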

Additional observations from a re-analysis of the deposited data

Results flagged for a closer look

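The change over time of 16 identifiers differed between the KO and WT controls in the long course (log2, KO minus WT): Ankrd37 by -1.04, Bnip3 by -0.83, Ndrg1 by -0.78, Egln3 by -0.76, Pfkfb3 by -0.69, Slc16a3 by -0.59, Pfkp by -0.31, Pgk1 by -0.30, P4ha1 by -0.29, Ldhb by -0.26, Ldha by -0.23, Slc2a1 by -0.15 and Pgam1 by -0.08, with Eno2 at 0.48, Slc2a3 at 0.24 and Hk1 at 0.18. Each passed the test of the difference itself, where 18.8% of all genes did. With length offsets 8 passed, where 7.89% of all genes did, and Ankrd37, Ndrg1, Eno2 and Hk1 were among those lost.

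The response to the transgene differed between the KO and WT backgrounds for 11 (log2, KO minus WT): Gpd1 by -1.78, Slc16a3 by -1.14, Aldoc by -0.68, Ldha by -0.46, Hk1 by -0.39, Tpi1 by -0.30, Slc2a3 by -0.25, Pfkm by -0.24 and Pfkp by -0.14, with Pfkfb3 at 0.65 and Ldhb at 0.29. Of all genes 5.32% differed in this way. Aldoc, Tpi1, Pfkfb3 and Ldhb were not called without replicate 2, and Gpd1 stood at no more than 1.24 TPM in the long course. Both families share the control libraries, and causes were not tested.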

How the results depend on the processing

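Counts of called members moved by over 1.5 times as follows. With length offsets they were 8 (change over time, KO against WT control), 1 (KO transgene at 0 min), 3 (overexpression) and 3 (short WT transgene at 0 min), against 16, 5, 10 and 5. The share of all genes fell as well, to 7.89%, 1.3%, 3.75% and 4.16%, against 18.8%, 3.54%, 9.8% and 6.86%. The KO transgene count at 0 min was 3 with library totals only and 2 with DESeq2, where 3.18% and 3.48% of all genes differed. Without the low-count filter the short course gave 7 (KO control over time), 3 (KO transgene at 0 min), 1 (overexpression) and 6 (rescue), against 4, 0, 0 and 2. Of the 32834 genes then tested 7.98%, 0.667%, 1.43% and 3.44% were called, against 13.3%, 0.428%, 0.7% and 1.83% with the filter. With only the lines compared it gave 8 (WT transgene at 0 min), 1 (overexpression) and 1 (rescue). The shares of all genes were then 11.9%, 1.24% and 0.595%. With 1 coefficient per line and time it gave 7 (KO control over time), 3 (WT control over time), 2 (WT transgene at 0 min) and 1 (rescue). Over all genes 5.72%, 11.2%, 2.93% and 0.95% were called under that setting. With 1 replicate number or the WT control library 3 at 1440 min left out, the range was 10 to 15 for the change over time, 1 to 5 for the KO transgene at 0 min, 1 to 8 for overexpression and 3 to 10 for its difference from the rescue. The shares of all genes ranged from 8.72 to 17.9%, 1.41 to 3.45%, 1.68 to 9.44% and 1.32 to 5.01%. In the short course the range was 0 to 3 (KO control over time), 2 to 7 (WT control over time), 1 to 9 (WT transgene at 0 min), 0 to 3 (overexpression) and 0 (rescue, both). There the shares ranged from 4.32 to 6.51%, 12.5 to 19.2%, 1.11 to 9.12%, 0.282 to 4.36% and 0.284 to 1.8%.

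Replicate numbers did not pair the libraries (median correlation of deviations 0.00125 in the long course). With a replicate block the short course gave 1 in the KO transgene at 0 min and 1 in overexpression, and no other count moved by over 1.5 times. The shares of all genes were 0.6% and 0.872%, against 0.428% and 0.7% without the block. In the short WT control over time Pgam1 (0.03) and P4ha2 (-0.15) turned sign without replicate 2: with 1 replicate number left out they ranged from -0.01 to 0.08 and from -0.32 to 0.05. The cause was not tested.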
